A study of Mus musculus with 6 samples.

Results

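General capillary endothelial cells line the alveolar capillary network of the lung, and those with at most 1 Esm1 transcript are described here in mouse lungs infiltrated by acute myeloid leukaemia (AML) and in normal lungs. The cells were chosen by their own single-cell counts of unique molecular identifiers (UMIs, each standing for 1 captured transcript) over 19 genes. A member had at least 500 genes and at most 15% mitochondrial UMIs. It had at least 2 UMIs of the endothelial genes Cdh5, Pecam1 and Cldn5 together and at least 2 of the capillary genes Gpihbp1, Cd93 and Sema3c together. It had none of the aerocyte genes Ednrb and Fibin, none of the vein and artery genes Slc6a2, Gja5 and Dkk2, none of the leukocyte gene Ptprc or the epithelial gene Epcam, at most 2 UMIs of the platelet genes Pf4 and Ppbp, at most 1 of the leukaemia genes Trap1a and Trnp1, and under 1% of its UMIs from the surfactant gene Sftpc. Of 24640 barcodes that passed both quality filters in 6 libraries, 11047 (44.8%) met the rule, 6966 of them in AML and 4081 in Control libraries.

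The alveolar capillary bed has 2 endothelial types. Aerocytes are large cells specialised for gas exchange, while general capillary cells carry the lipase anchor Gpihbp1, regulate vessel tone and leukocyte traffic, and serve as progenitors that can renew both types after injury. A rare state with Esm1, a proteoglycan secreted by tip cells, shares most of their genes and was set apart by the rule.

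The 3 AML libraries held non-haematopoietic cells of lungs infiltrated by AML with the Trp53 genotype R172H/Δ, into which sorted GFP+ leukaemia cells had been mixed at 20% of the suspension with 80% lung cells. The 3 Control libraries held the same kind of cells from normal lungs, with no leukaemia cells added. Strain, age and the host of the leukaemia were not given in the sources used here. Nor do the labels name separate animals behind the 3 libraries of a group, and a p-value therefore speaks only to the spread among libraries, part of which can be technical. No sequencing batch or date is given, so a batch and the groups cannot be told apart.

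The AML libraries 1, 2 and 3 held 2284, 2040 and 2642 general capillary cells, and the Control libraries 706, 1865 and 1510. A median member carried 3562.5, 4011.5 and 2795.5 UMIs in AML and 7802.5, 4633 and 4332 UMIs in Control, and UMIs of all members summed to between 5962532 and 9351557 per library. Control 1 thus stood apart with the fewest and deepest cells. In some genes described below AML 1 stood apart from the other AML libraries, such as Cd74 and Spry4. In others AML 2 did, such as Cldn5 and Lyve1. Between any pair of libraries 1 to 24 cell barcodes were shared, and at most 4 of members. Members of any 2 libraries of a group differed beyond sampling noise (chi-square over its degrees of freedom, 8.58 to 43.4), so none looked like a second deposit of another. Intervals and floors cover counting error only.

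The label was checked against markers that the rule did not use, as a description, since the same cells chose the members. Of 16 such general capillary markers, 14 were higher in members than in aerocytes of the same library in all 6 libraries, among them the receptor tyrosine kinase Kit, the apelin receptor Aplnr and the fenestral diaphragm protein Plvap. Nostrin, which binds nitric oxide synthase, was the exception that lay lower in all 6. Of 11 aerocyte markers 10 were lower in members in all 6 libraries, and their sum was 1332 to 2081 raw CPM (a gene's UMIs scaled to a common total of the class in each library) in members against 7615 to 14535 in aerocytes. The lymphatic marker Lyve1, which lung capillary cells also express, was high in members, while lymphoid markers summed to at most 2.71 raw CPM. Arterial and venous markers were also higher in members than in aerocytes: 6 of 8 arterial markers were so in all 6 libraries, with a sum of 1040 to 2028 raw CPM in members against 407 to 1219 in aerocytes, and 3 of 8 venous markers, with a sum of 333 to 493 against 77.3 to 144. Aerocytes here had at least 2 UMIs of Ednrb and Fibin together and more of these than of the capillary genes, and alveolar type 2 cells had at least 1% Sftpc UMIs with Epcam.

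The members just inside the capillary gene threshold were shallow cells. Those with exactly 2 UMIs of the capillary genes numbered 9 to 52 per library, with median UMIs of 1152.5 to 1565.5, and barcodes with 1 UMI, just outside, numbered 9 to 46. Members with 1 Esm1 UMI numbered 28, 34 and 45 in AML and 34, 78 and 72 in Control, and barcodes with 2, just outside, 17, 12 and 13 in AML and 17, 29 and 31 in Control. Of the genes that chose the cells, Gpihbp1, the capillary anchor of lipoprotein lipase, stood at 1945, 1834 and 2379 raw CPM in AML and 1244, 1980 and 1733 in Control. Cd93, an endothelial lectin-like receptor, stood at 2403, 3307 and 2123 raw CPM in AML and 2523, 2014 and 1883 in Control. Cldn5, a tight junction protein, stood at 3258, 6335 and 2750 raw CPM in AML, highest in AML 2, and 2089, 2814 and 3118 in Control. These levels describe the rule and were not tested.

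General capillary cells made up a larger share of endothelial barcodes in AML libraries, 71.0%, 74.1% and 69.2%, against 52.6%, 59.6% and 53.5% in Control libraries. Endothelial barcodes passed both quality filters, had at least 2 UMIs of Cdh5, Pecam1 and Cldn5 together, and had no Ptprc or Epcam UMI. Some failed the rule only by 1 UMI of the aerocyte genes, namely 88, 112 and 135 in AML and 86, 184 and 118 in Control. Their part in the share difference was not tested. The exact 95% binomial intervals spanned 67.7% to 75.7% over the AML libraries and 49.9% to 61.3% over the Control libraries, and the groups did not overlap. The means were 71.5% ± 2.45 in AML and 55.2% ± 3.81 in Control (SD, n = 3 each; two-sided exact permutation test, p = 0.1, the smallest that 3 against 3 libraries allow). The rule counts raw UMIs, and the Control cells were deeper. When every cell was first thinned to 2000 UMIs the shares were 74.5%, 79.9% and 71.7% in AML and 69.7%, 68.5% and 58.6% in Control, and the difference of means fell to 9.72 percentage points, against 16.3 with all UMIs. The plot of shares by library shows both versions. A share of barcodes is not a number of cells in the lung, and fewer cells of a type and a lower yield of them cannot be told apart here.

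**Figure D1:**
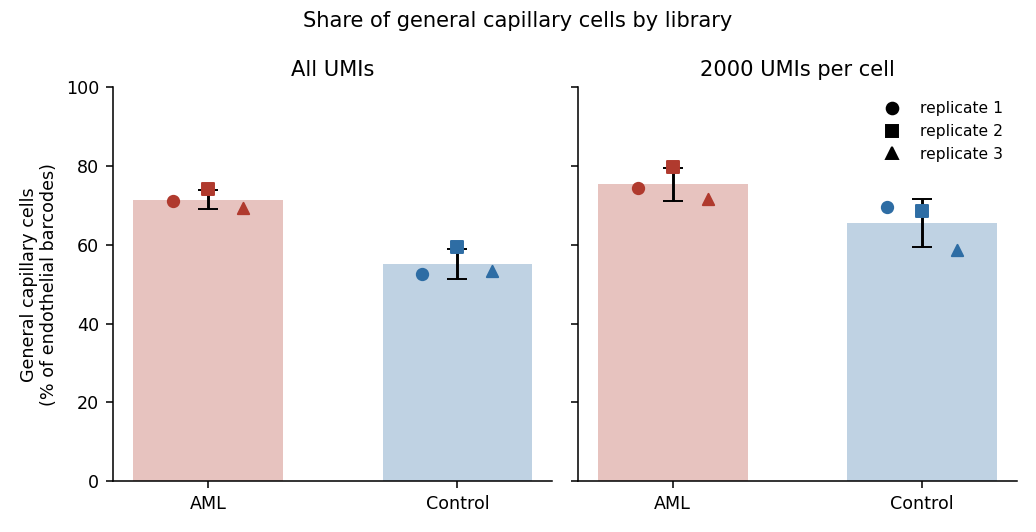
Share of general capillary cells among endothelial barcodes (percent, y axis) in AML (left) and Control (right) libraries, with all UMIs and with 2000 UMIs per cell; bars are means, error bars SD of 3 libraries and symbols the replicates. The AML libraries lie between 69.2% and 74.1% with all UMIs, above the Control libraries at 52.6% to 59.6%, and the gap is narrower at 2000 UMIs.

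To ask what the leukaemia-infiltrated lung changed in these cells, UMIs were summed over the members of each library and compared with edgeR's quasi-likelihood test. Changes are AML minus Control, and p-values were adjusted by Benjamini-Hochberg over the 11660 genes tested. At an adjusted p under 0.05, 86 genes were higher in AML (0.738%) and 122 were lower (1.05%), 208 in all (1.78%). These include 3 genes that the rule itself used, Trnp1, Pf4 and Ppbp, whose part in the calls is no finding, and without them 85 genes were higher and 120 lower. Outside the rule genes, 52 called rises averaged at least 20 CPM in AML. Of these, 11 stood higher in haematopoietic barcodes of the AML libraries than in members. Such barcodes had at least 1 UMI of Ptprc or at least 2 of Trap1a and Trnp1 together. The part of leukaemia RNA in these 11 rises was not tested. The median log2 change over all tested genes was -0.00. In 14.9% of genes the 3 AML values lay above the 3 Control values and in 15.2% below. The surface antigens Ly6c1 and Ly6a, the matrix protease inhibitor Timp3 and the cold-inducible genes rose. Those that fell included 4 heat shock chaperones, 3 genes of the interferon response and 4 genes of sprouting vessels, of which Cxcr4 and Apln were low in members. Levels in CPM below were scaled between libraries by TMM (trimmed mean of M values), and raw CPM were not.

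The number of calls rested on single libraries. It was 965 without AML 1, 6 without AML 2, 0 without AML 3, 0 without Control 1, 95 without Control 2 and 18 without Control 3; 1612 and 1981 genes had an unadjusted p under 0.05 without AML 3 and without Control 1 (edgeR). All 208 genes kept their direction in each of these fits. This adds no support, since in all 208 the AML values already lay on one side of the Control values. Of the 53 called genes named by rule, 53, 3, 0, 0, 29 and 10 were still called without AML 1, AML 2, AML 3, Control 1, Control 2 and Control 3 in turn. In the 10 other alternatives, 16 named genes lost their call at least once: Isg15 in 6, Emp2 in 5, Cyp1a1 in 4, Errfi1 and Tcf23 in 3, Col3a1 and Jam2 in 2, and Apln, Cxcr4, Hba-a1, Hba-a2, Hbb-bs, Ifi203, Nrgn, Serpinh1 and Vegfc in 1.

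**Figure D2:**
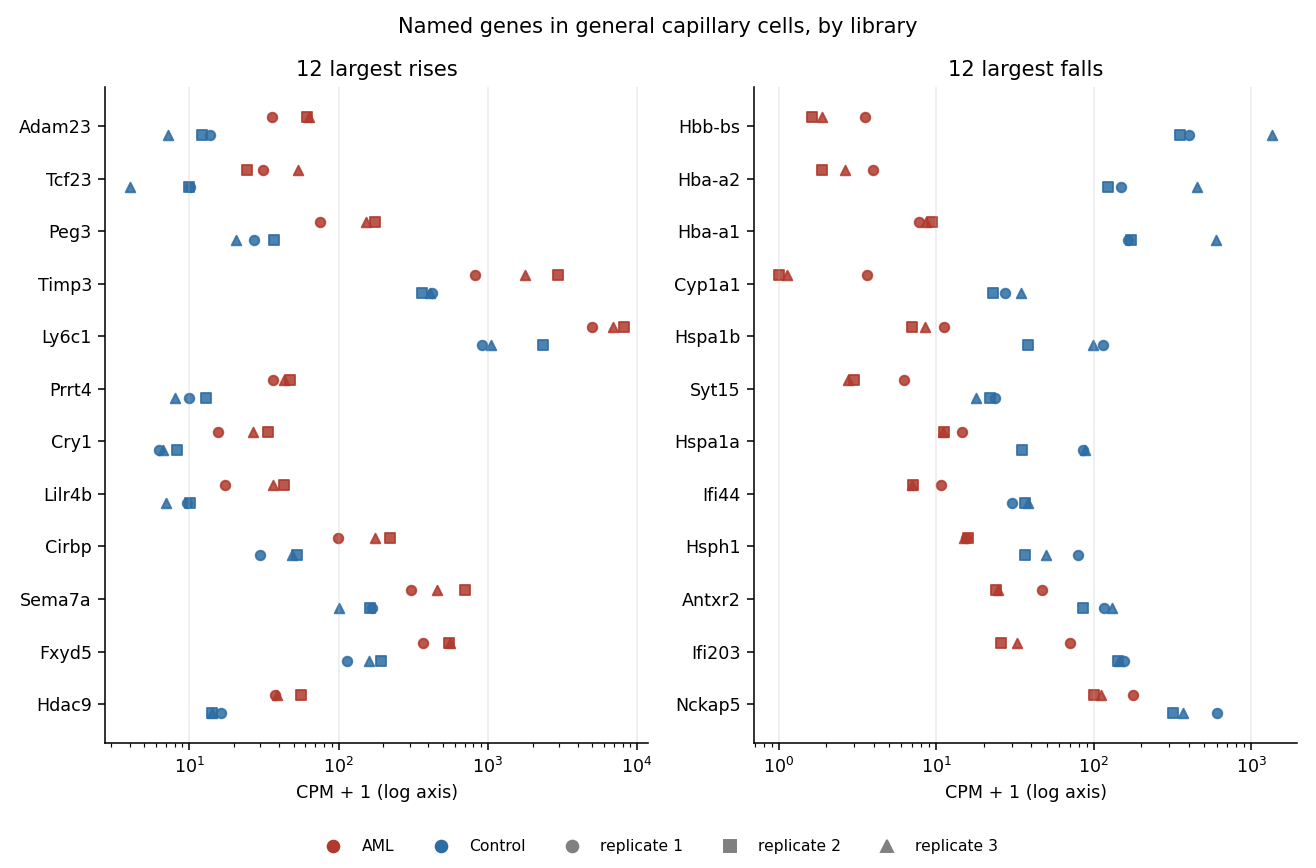
CPM + 1 (log axis) in general capillary cells for the 12 largest rises (left) and 12 largest falls (right) among genes named by rule; red symbols are AML libraries, drawn above the blue Control libraries, with a shape per replicate. In each of these genes the 3 AML values lie on one side of the 3 Control values, as the naming rule required, and AML 1 often lies nearest to the Control libraries.

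Among surface and secreted proteins, Ly6c1 was among the most abundant genes that rose. This GPI-anchored antigen of small vessels (ENSMUSG00000079018, mm10 chromosome 15, 75044018 to 75048830, minus strand) had 4953, 8125 and 6845 CPM in AML libraries, against 918, 2329 and 1055 CPM in Control libraries. Every AML library was above every Control library, and Control 2 was the highest of its group. The fold was 4.63 (log2 2.21 ± 0.37 SE, edgeR adjusted p = 0.0333). At 2000 UMIs per cell, 99.2%, 99.7% and 99.6% of AML members and 72.1%, 92.4% and 75.6% of Control members had a Ly6c1 UMI, while alveolar type 2 epithelial cells, which should lack it, had 10.1% to 15.2% in AML and 8.8% to 18.3% in Control. The related antigen Ly6a, also known as Sca-1, averaged 7713 ± 1263 CPM in AML and 2551 ± 1184 CPM in Control (log2 1.60 ± 0.33 SE, edgeR adjusted p = 0.0443). Of 5 tested Ly6 genes 2 rose and all 5 had a log2 change above 0, with a median of 1.60. Ly6c2, the near-identical copy of Ly6c1, was low, at 1.8, 2.1 and 1.9 CPM in AML and 0.6, 1.6 and 0.5 CPM in Control, and reads could be split between the copies. Both Ly6c1 and Ly6a were also higher in AML in the other capillary classes. In aerocytes Ly6c1 averaged 9506 raw CPM in AML and 2748.5 raw CPM in Control, and Ly6a 11269 and 4715 raw CPM. In Esm1-positive capillary cells Ly6c1 averaged 6376 raw CPM in AML and 1295 raw CPM in Control, and Ly6a 7926 and 2845 raw CPM.

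Timp3, a matrix-bound inhibitor of metalloproteinases (chromosome 10, 86300372 to 86349506, plus strand), had 819, 2938 and 1762 CPM in AML and 424, 359 and 406 CPM in Control. AML 1 lay closest to the Control libraries and AML 2 was highest. The fold was 4.64 (log2 2.21 ± 0.39 SE, edgeR adjusted p = 0.0341), and log2 was 1.71 (adjusted p = 0.0692) without AML 2. The call was also lost without AML 3, Control 1, Control 2 or Control 3 (edgeR adjusted p = 0.163, 0.155, 0.0843 and 0.0991). Cells with a Timp3 UMI at 2000 UMIs made up 57.6%, 88.1% and 78.1% of members in AML and 39.9%, 35.4% and 38.5% in Control, against 12.8% to 32.6% of alveolar type 2 cells in AML and 10.7% to 19.1% in Control. Timp3 was also higher in AML in aerocytes, at 4735.5 raw CPM on average in AML and 1364 raw CPM in Control.

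Of 25 tested secreted factors 3 rose and 0 fell (edgeR; DESeq2 called 8), with a list median of -0.08. They were Timp3, the axon guidance ligand Sema7a and the lymphatic growth factor Vegfc. Sema7a had 304, 703 and 455 CPM in AML and 167, 163 and 100.4 CPM in Control (log2 1.76 ± 0.32 SE). Vegfc averaged 112 ± 21.9 CPM in AML and 54.8 ± 7.93 CPM in Control (log2 1.03 ± 0.20 SE, edgeR adjusted p = 0.0396). Lrg1, an acute phase glycoprotein, had 228, 556 and 420 CPM in AML and 34.9, 111 and 43.7 CPM in Control and narrowly missed the threshold (log2 2.66 ± 0.51 SE, edgeR adjusted p = 0.0521). In aerocytes Lrg1 averaged 656 raw CPM in AML and 73.1 raw CPM in Control.

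The 12 largest rises held further genes of varied roles. Adam23, a catalytically inactive member of the ADAM family that binds integrins (chromosome 1, 63445891 to 63596276), had 34.8, 60.4 and 62.6 CPM in AML and 12.8, 11.1 and 6.18 CPM in Control (log2 2.39 ± 0.30 SE, edgeR adjusted p = 0.0185). It averaged 1.47 raw CPM in AML and 0.297 raw CPM in Control aerocytes. Peg3, an imprinted zinc finger gene, had 74.5, 174 and 152 CPM in AML and 26.0, 35.9 and 19.6 CPM in Control. The remaining rises were the basic helix-loop-helix factor Tcf23, the membrane protein gene Prrt4, the circadian repressor Cry1, the immunoglobulin-like receptor gene Lilr4b, the sodium pump regulator Fxyd5 (492 CPM in AML and 155 CPM in Control on average), the histone deacetylase Hdac9 and the cold-inducible Cirbp, with log2 changes of 1.63 to 2.33.

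Both tested cold-inducible RNA-binding genes rose. Cirbp had 97.6, 219 and 174 CPM in AML and 28.8, 51.9 and 47.7 CPM in Control (log2 1.93 ± 0.31 SE), and Rbm3 had 382, 892 and 623 CPM in AML and 154, 228 and 212 CPM in Control (log2 1.67 ± 0.30 SE, edgeR adjusted p = 0.0341). Cirbp was also higher in other lung cells of the AML libraries, at 163 raw CPM in AML and 46.9 raw CPM in Control alveolar type 2 cells. Rbm3 stood higher in haematopoietic barcodes of the AML libraries, at 1371 raw CPM on average, than in members, and the part of leukaemia RNA in its rise was not tested.

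Some heat shock chaperones fell. Of 21 tested genes of dissociation and heat shock, 4 fell and 0 rose, all 4 of them chaperone genes, while the immediate early genes and the chaperone genes Dnajb1, Hspb1 and Hsp90aa1 on the list did not pass. Hspa1a, the inducible HSP70 chaperone (chromosome 17, 34969190 to 34972156, minus strand), had 13.5, 10.2 and 10.0 CPM in AML and 84.1, 34.1 and 86.1 CPM in Control (log2 -2.59 ± 0.34 SE, edgeR adjusted p = 0.0249). Its near-identical neighbour Hspa1b had 10.1, 5.96 and 7.52 CPM in AML and 112.8, 37.2 and 97.5 CPM in Control (log2 -3.38 ± 0.43 SE), and UMIs could be split between both genes. Hsph1, a nucleotide exchange factor of HSP70, averaged 14.3 ± 0.439 CPM in AML and 54.3 ± 22.1 CPM in Control, and Hspa8, the constitutive HSP70, averaged 899.7 ± 117 CPM in AML and 1719.7 ± 61.1 CPM in Control. The same direction held in alveolar type 2 cells, where Hspa1a averaged 6.24 raw CPM in AML and 37.5 raw CPM in Control. Its share of cells with a UMI at 2000 UMIs was 1.8% to 2.8% of members in AML and 5.2% to 11.6% in Control, and among alveolar type 2 cells it was 0.5% to 0.7% in AML and 5.3% to 13.1% in Control.

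The promoters of both HSP70 genes are shown to make plain how alike the copies are. They are 120 bases just upstream of the RefSeq start sites (GRCm38.p6), on the minus strand, with capitals marking the heat shock element core GAANNTTC, searched on both strands; this motif occurs in 7.86% of 32851 promoter windows of 300 bases, and 296 of 300 bases are identical between the windows of both genes. Hspa1a lies at chr17:34972171-34972290 and Hspa1b at chr17:34959253-34959372. Genes were picked for display after their values were seen, and a match is a description of the letters only.
Hspa1a: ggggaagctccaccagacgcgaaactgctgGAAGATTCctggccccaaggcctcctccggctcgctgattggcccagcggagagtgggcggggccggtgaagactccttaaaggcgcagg
Hspa1b: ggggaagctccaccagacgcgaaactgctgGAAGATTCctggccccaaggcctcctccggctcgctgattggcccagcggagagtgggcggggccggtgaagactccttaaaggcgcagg

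Interferon-induced genes leaned lower in AML, and few of them passed with edgeR. Of 21 tested type I interferon response genes 3 fell and 0 rose (18 had an unadjusted p under 0.05, and DESeq2 called 13), and all 21 had a log2 change below 0, with a list median of -1.0. Ifi44, an interferon-induced cytoplasmic protein, had 9.64, 6.09 and 6.01 CPM in AML and 29.0, 35.4 and 37.4 CPM in Control (log2 -2.22 ± 0.22 SE, edgeR adjusted p = 0.0064). Ifit1, which binds viral RNA caps, averaged 21.8 ± 2.67 CPM in AML and 46.6 ± 8.96 CPM in Control (log2 -1.09 ± 0.19 SE). Isg15, a ubiquitin-like modifier, averaged 38.1 ± 9.5 CPM in AML and 76.2 ± 14.5 CPM in Control (log2 -1.0 ± 0.22 SE, edgeR adjusted p = 0.0491). Isg15 lost its call in 11 of 16 alternatives, with edgeR adjusted p-values of 0.0527 with DESeq2 size factors and 0.207 without AML 3. Ifi203, which is not on that list, is an interferon-inducible gene of the DNA sensor family and had 69.4, 24.6 and 31.6 CPM in AML and 155, 141 and 143 CPM in Control.

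Within this list the promoters of Ifit1 and Isg15 carry the interferon-stimulated response element core, searched on both strands as TTTC, any 2 bases and TTTC again, which is found in 3.44% of the 32851 windows; Ifi44 has no match in its window. Capitals mark the matches, some of them overlapping. Ifit1 is shown at chr19:34640755-34640874 on the plus strand and Isg15 at chr4:156200807-156200926 on the minus strand (GRCm38.p6, RefSeq). A match describes the letters only.
Ifit1: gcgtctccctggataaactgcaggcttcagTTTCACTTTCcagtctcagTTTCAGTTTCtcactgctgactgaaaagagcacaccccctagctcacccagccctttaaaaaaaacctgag
Isg15: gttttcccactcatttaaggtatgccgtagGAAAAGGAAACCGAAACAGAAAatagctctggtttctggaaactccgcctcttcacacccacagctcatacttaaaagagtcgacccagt

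Antigen presentation genes fell in 1 case and differed among the AML libraries. Of 17 tested MHC class I genes 1 passed with edgeR (3 with DESeq2): Nlrc5, the activator of class I transcription, fell (7.26, 5.22 and 2.88 CPM in AML and 20.8, 12.5 and 15.7 CPM in Control; log2 -1.66 ± 0.33 SE, edgeR adjusted p = 0.0429), and all 17 had a log2 change below 0. The 17 summed to 12513, 7181 and 6539 raw CPM in AML and 10906, 13092 and 12914 raw CPM in Control. In this sum AML 1 lay within the range of the Control libraries. None of 7 class II genes passed (edgeR, 0 at an adjusted and 0 at an unadjusted p under 0.05; DESeq2, 0). Cd74, the invariant chain of class II, had 601, 94.6 and 90.2 CPM in AML and 377, 593 and 437 CPM in Control. AML 1 was above all Control libraries and AML 2 and 3 were below them. At 2000 UMIs 43.6%, 10.6% and 8.1% of AML members and 33.1%, 41.8% and 35.8% of Control members had a Cd74 UMI; it is a gene that alveolar type 2 cells express strongly, at 70.7% to 99.3%.

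**Figure D3:**
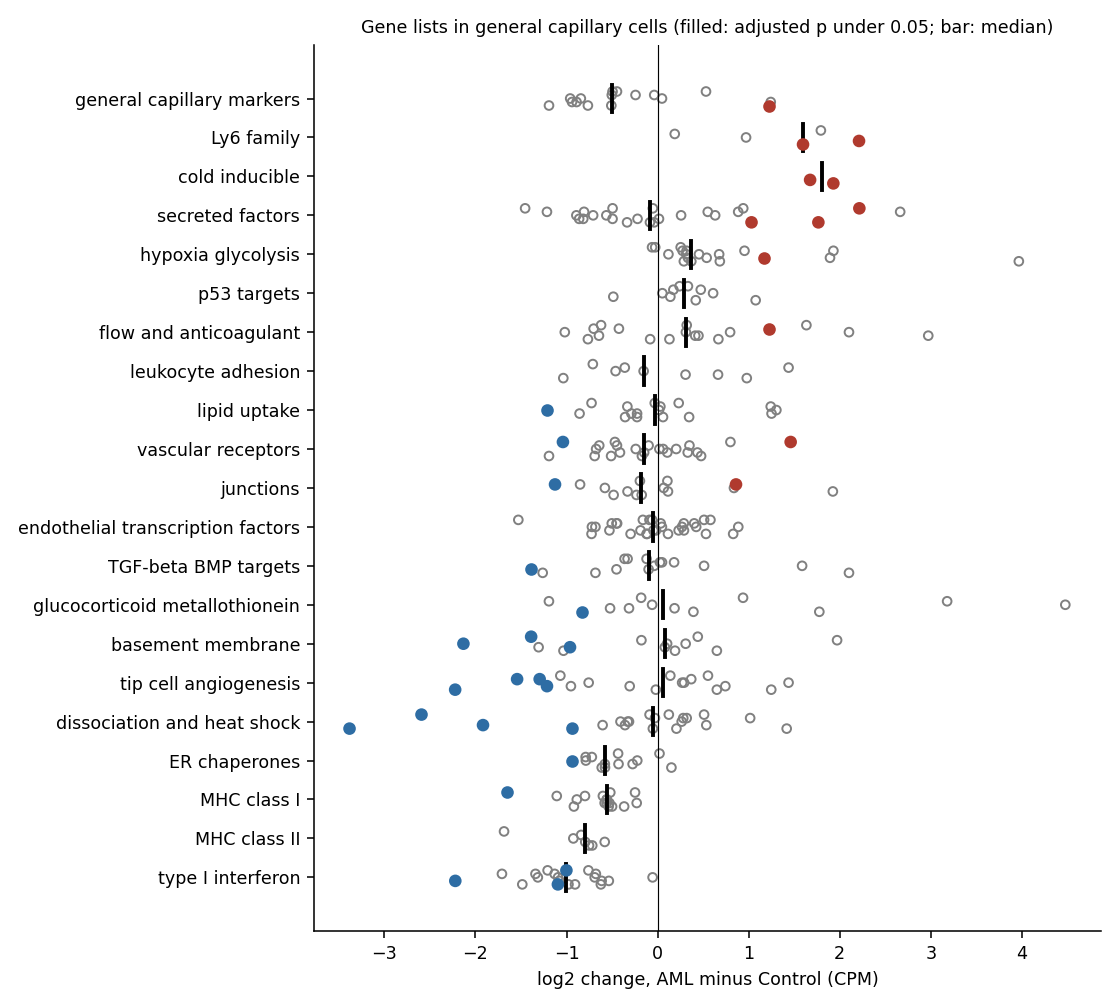
log2 change (AML minus Control, x axis) of the tested members of 21 gene lists in general capillary cells; filled red and blue circles passed an adjusted p under 0.05 as higher and lower, open circles did not, and black bars are list medians. The type I interferon list lies wholly below 0, the 2 cold-inducible genes both lie above 1, and the 4 heat shock genes that fell are the lowest of their list.

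Genes of sprouting and tip cells fell in part. Of 18 tested genes of tip cells and angiogenesis 4 fell and 0 rose (edgeR; DESeq2 called 6). Dll4, the Notch ligand of tip cells (chromosome 2, 119325784 to 119335962), had 63.5, 36 and 39 CPM in AML and 114, 99.2 and 108 CPM in Control (log2 -1.21 ± 0.22 SE, edgeR adjusted p = 0.0350). Pdgfb, which recruits pericytes, had 133, 69.3 and 101 CPM in AML and 307, 210 and 226 CPM in Control (log2 -1.29 ± 0.25 SE). The chemokine receptor gene Cxcr4 and the apelin gene Apln were low in these cells, Cxcr4 at 3.19 ± 0.915 CPM in AML and 9.35 ± 1.07 CPM in Control, and Apln at 1.83 ± 1.04 CPM in AML and 8.63 ± 3.41 CPM in Control. Apln averaged 91.8 raw CPM in AML and 426 raw CPM in Control aerocytes, and 25.6 and 12.2 raw CPM in Esm1-positive cells. Cxcr4 averaged 28.4 raw CPM in AML and 122 raw CPM in Control Esm1-positive cells, and 0.273 and 3.51 raw CPM in aerocytes. The list median was 0.06, and basement membrane genes among it, Col4a1 and Col4a2, had log2 changes of 0.29 and 0.37 and did not pass. Of 23 vascular receptors, Ramp3, a receptor activity-modifying protein, rose (log2 1.46 ± 0.25 SE) and Plxnd1, a semaphorin receptor, fell (log2 -1.04 ± 0.21 SE).

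Of 31 tested endothelial transcription factors 0 passed with edgeR (9 at an unadjusted p under 0.05; 2 passed with DESeq2), with a median of -0.05. Of 14 junction genes, Jam2, an adhesion molecule, rose (205 ± 8.77 CPM in AML and 113 ± 21.1 CPM in Control; edgeR adjusted p = 0.0469, and 0.0502 without the condition on Esm1) and the cadherin Pcdh12 fell (14.2 ± 4.35 CPM in AML and 31.1 ± 4.09 CPM in Control). Of 16 general capillary markers 12 had a log2 change below 0 and 4 above, with a list median of -0.50. Only 1 of the 16 passed with edgeR (5 with DESeq2), namely Vwf, the platelet-binding multimer, which rose. It had 256, 339 and 267 CPM in AML and 115, 139 and 116 CPM in Control (log2 1.22 ± 0.19 SE, edgeR adjusted p = 0.0265). Lpl, the lipase held by Gpihbp1, had 1296, 2224 and 1472 CPM in AML and 610, 914 and 586 CPM in Control and missed the threshold (log2 1.24 ± 0.27 SE, edgeR adjusted p = 0.0521). Kit averaged 339.8 ± 109 CPM in AML and 629.7 ± 13.6 CPM in Control (edgeR adjusted p = 0.0798). Plvap averaged 693 ± 278 CPM in AML and 1347 ± 126 CPM in Control (edgeR adjusted p = 0.096), and Aplnr 34.7 ± 23.4 CPM in AML and 79.6 ± 8.61 CPM in Control (edgeR adjusted p = 0.247). None of these 3 passed. Car4, the membrane carbonic anhydrase that marks aerocytes, rose in members, at 315, 483 and 403 CPM in AML and 116, 184 and 155 CPM in Control (log2 1.40 ± 0.23 SE, edgeR adjusted p = 0.0333); in aerocytes its means were 2662 raw CPM in AML and 2820 raw CPM in Control. Emp2, Apln and Nckap5, also on the aerocyte list, fell. In aerocytes Emp2 averaged 2311 raw CPM in AML and 4086 raw CPM in Control. Nckap5 was the listed aerocyte gene that stood higher in members than in aerocytes in all 6 libraries.

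Basement membrane genes that passed the test all fell. Of 13 tested basement membrane genes 3 fell, namely Ltbp4, which binds latent TGF-beta, the collagen Col15a1 and the heparan sulfate proteoglycan Agrn. The list as a whole did not fall, with 7 genes above 0, 6 below and a median log2 change of 0.08. Ltbp4 had 23.6, 16.3 and 21.4 CPM in AML and 54.3, 36.4 and 70.2 CPM in Control (log2 -1.39 ± 0.25 SE). Col15a1 was low, at 1.25 ± 0.122 CPM in AML and 5.58 ± 1.90 CPM in Control. Of 13 endoplasmic reticulum chaperones 1 passed with edgeR (7 at an unadjusted p under 0.05; 4 with DESeq2), the collagen chaperone Serpinh1, which fell (141, 134 and 95.6 CPM in AML and 218, 225 and 269 CPM in Control). Of 12 glucocorticoid and metallothionein genes 1 passed with edgeR (4 with DESeq2), Errfi1, an inhibitor of EGF receptor signalling, which fell (log2 -0.83 ± 0.17 SE). Its edgeR adjusted p was 0.0453, against 0.0652 with the rule applied at 2000 UMIs.

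Of 19 hypoxia and glycolysis genes 1 passed with edgeR (6 with DESeq2): Ldha, lactate dehydrogenase A, rose (221, 227 and 276 CPM in AML and 81.2, 123 and 117 CPM in Control; log2 1.17 ± 0.20 SE, edgeR adjusted p = 0.0336), and 17 of 19 had a log2 change above 0. In the haematopoietic barcodes of the AML libraries 12 of the 19 stood higher than in members, and the part of leukaemia RNA in these values was not tested. Of 10 p53 target genes 0 passed with edgeR (2 at an unadjusted p under 0.05; 1 with DESeq2), and Cdkn1a, a cell cycle inhibitor, had 1668, 3027 and 2323 CPM in AML and 992, 1429 and 906 CPM in Control (adjusted p = 0.0752). Of 17 lipid uptake genes 1 passed with edgeR (3 with DESeq2), Fabp5, a fatty acid binding protein, which fell (log2 -1.21 ± 0.25 SE).

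Transcripts of other cells moved with the groups in places. The haemoglobin genes were the largest falls, and Hbb-bs had 2.50, 0.621 and 0.877 CPM in AML against 398, 348 and 1357 CPM in Control. At 2000 UMIs per cell a Hbb-bs UMI occurred in 0.6%, 0.1% and 0.1% of AML members and in 4.1%, 2.9% and 7.3% of Control members, and alveolar type 2 cells averaged 0.412 raw CPM in AML and 7.61 raw CPM in Control. With barcodes scored as doublets by Scrublet left out, which took 2 of 706 members of Control 1, Hbb-bs was at 2.59, 0.618 and 0.772 raw CPM in AML and 19.2, 346 and 1377 raw CPM in Control, and its log2 change of -8.72 no longer passed (edgeR adjusted p = 0.11). Control 1 aerocytes stood at 1898 raw CPM of Hbb-bs, above every other library of that class. The erythroid list summed to 15.6, 11.2 and 12.9 raw CPM in AML and 808, 663 and 2692 raw CPM in Control. The haematopoietic genes Car1 and Myb were called higher in AML at 1.9, 1.7 and 2.5 CPM for Car1 and 1.4, 1.6 and 2.4 CPM for Myb, with 0.0 to 0.1 CPM in Control, where 0 UMIs allow up to 0.321 to 0.503 raw CPM; leukaemia RNA was mixed into the AML suspensions, and its part in these 2 rises was not tested. Fibroblast markers summed to 9.29, 23.9 and 17.8 raw CPM in AML and 33.7, 23 and 99.1 raw CPM in Control, with Col3a1 called lower (log2 -3.73), a call lost with equal cells per library (edgeR adjusted p = 0.0549) and with the rule applied at 2000 UMIs (log2 -2.11, 0.1), and lymphoid markers to at most 2.71 raw CPM in any library. The airway gene Scgb1a1 stood at 62.3, 32 and 47.1 CPM in AML and 31.7, 38.0 and 509 CPM in Control, high in Control 3 alone.

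Cyp1a1, an aryl hydrocarbon receptor target that oxidises foreign compounds (chromosome 9, 57687928 to 57703824), fell in AML libraries, at 2.61, 0.0 and 0.125 CPM against 26.1, 21.8 and 33.7 CPM in Control (log2 -4.81 ± 0.83 SE, edgeR adjusted p = 0.0484). The 0 UMIs of AML 2 allow up to 0.353 raw CPM. Aerocytes had no Cyp1a1 UMI in the 3 AML libraries, which allows up to 2.35 to 3.77 raw CPM, and averaged 45.2 ± 20.3 raw CPM in Control. In general capillary cells the call was lost in 9 of 16 alternatives, among them no low-count filter (edgeR adjusted p = 0.118) and leaving out any library but AML 1 (0.0543 to 0.179). Syt15, a synaptotagmin, Antxr2, an anthrax toxin and collagen receptor, and Nckap5 completed the 12 largest falls, with Nckap5 at 175, 98.4 and 109 CPM in AML and 599, 318 and 365 CPM in Control.

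The effect of AML differed between general capillary cells and aerocytes of the same libraries in 142 of 11590 genes (1.23%; edgeR interaction with the library as a factor; 66 higher and 76 lower in general capillary cells). The class-by-group difference was 2.03 ± 0.18 SE on the log2 scale for Spry4, an inhibitor of receptor tyrosine kinase signalling (adjusted p = 1.79e-06). In CPM scaled over both classes together, Spry4 averaged 326 ± 234 CPM in AML and 39.7 ± 4.21 CPM in Control general capillary cells, with AML 1 at 82.3 and AML 2 at 549 CPM, and 46.6 ± 28.9 CPM in AML and 24.1 ± 1.65 CPM in Control aerocytes. Tbxa2r, the thromboxane receptor, had a log2 difference of 2.31 ± 0.30 SE: it averaged 4.41 ± 2.73 CPM in AML and 6.31 ± 1.60 CPM in Control members, and 10.7 ± 6.07 CPM in AML and 77.8 ± 22.1 CPM in Control aerocytes. Fam107a, a stress-induced actin-binding gene, differed by -2.04 ± 0.23 SE: it averaged 84.8 ± 30.5 CPM in AML and 72.2 ± 22.8 CPM in Control members, and 52.0 ± 25.9 CPM in AML and 10.1 ± 5.81 CPM in Control aerocytes. The phosphatase Ptp4a3 (1.16 ± 0.14 SE), the actomyosin regulator Limch1 (-1.66 ± 0.21 SE) and the Ral exchange factor Rgl1 (1.06 ± 0.14 SE) also differed. Without a replicate in turn, the count lay between 54 (without AML 3) and 250 (without AML 1), with 124, 91, 84 and 71 without AML 2, Control 1, Control 2 and Control 3. All 6 named genes were called in each of those fits. For Spry4, Ptp4a3 and Limch1 the AML change by itself passed in neither class (edgeR).

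**Figure D4:**
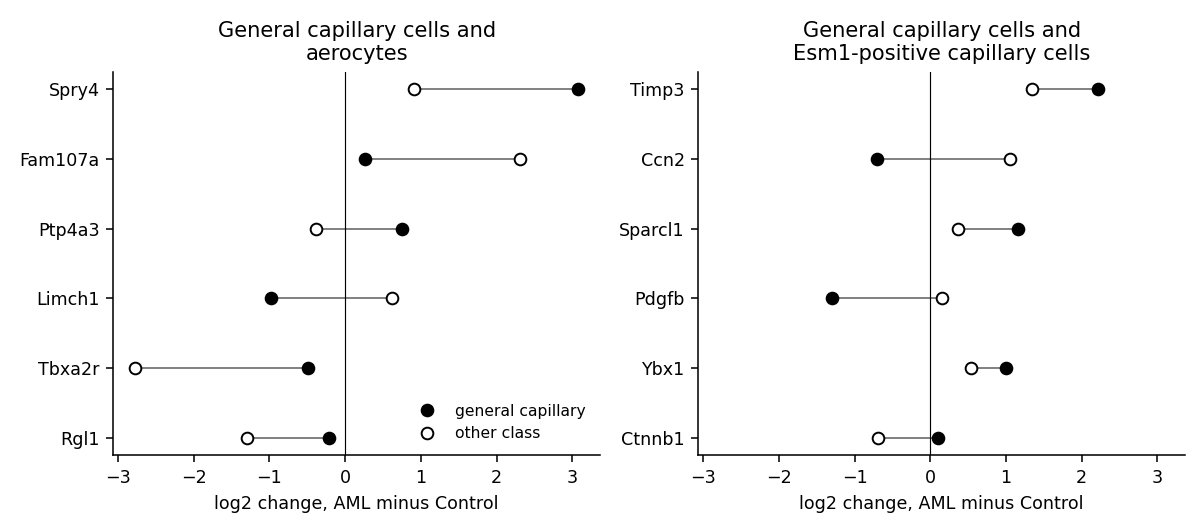
log2 change (AML minus Control) of the 6 genes with the lowest p that met the naming rule in each interaction test. General capillary cells are filled circles and the other class open circles, joined by a line whose length is close to the tested difference. Spry4 changed by 3.07 in general capillary cells and 0.91 in aerocytes, and Pdgfb by -1.29 in general capillary cells and 0.16 in Esm1-positive cells.

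Against Esm1-positive capillary cells, which share every other condition of the rule, 36 of 10951 genes (0.329%) had a different AML effect, 21 of them higher in general capillary cells and 15 lower. One of the lower calls is Esm1, which separates both classes by the rule and is no finding, and without it 21 were higher and 14 lower. With DESeq2 size factors the split was 10 higher and 18 lower, and the median over all genes was 0.02, against 0.14 with TMM. These cells were few, at 47, 30 and 32 in AML and 57, 112 and 108 in Control. Timp3 differed by 0.96 ± 0.12 SE (adjusted p = 1.34e-11): it averaged 1863 ± 1072 CPM in AML and 403 ± 34 CPM in Control general capillary cells, and 1398 ± 985 CPM in AML and 582 ± 176 CPM in Control Esm1-positive cells. Pdgfb differed by -1.30 ± 0.24 SE, with 102 ± 32.5 CPM in AML and 252 ± 52.7 CPM in Control members, and 153 ± 37.9 CPM in AML and 142 ± 7.68 CPM in Control Esm1-positive cells. It was at an adjusted p of 0.0506 without AML 2. Ccn2, a matricellular protein, differed by -1.70 ± 0.24 SE, the matricellular Sparcl1 by 0.86 ± 0.13 SE, the RNA-binding Ybx1 by 0.55 ± 0.11 SE and the catenin Ctnnb1 by 0.85 ± 0.17 SE. Ybx1 was lost without Control 1, Control 2 or Control 3 (adjusted p = 0.133, 0.0807 and 0.137) and Ctnnb1 without AML 3 (0.105). The count was 37, 24, 26, 21, 22 and 14 without AML 1, AML 2, AML 3, Control 1, Control 2 and Control 3. For Ccn2, Sparcl1, Ybx1 and Ctnnb1 the AML change by itself passed in neither class (edgeR).

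Among the members of a library, the cells differed most in a few genes. At 2000 UMIs per cell, the variance over the mean, which is 1 for counting noise alone, had a median of 1.07 over 4543 genes, and 54 genes were over 2. The highest medians over the 6 libraries were Mgp, a matrix Gla protein (18), Malat1, a nuclear long noncoding RNA (15.2), the airway gene Scgb1a1 (7.46), the transporter gene Atp13a3 (5.94), the mitochondrial genes mt-Atp6 (5.31), mt-Co1 (4.43), mt-Co2 (4.02) and mt-Co3 (3.8), the transcript AY036118 (4.28) and Lyve1 (4.22). Mgp and Scgb1a1 had means below 0.7 UMI per cell in every library, while Lyve1 averaged 3.58, 11 and 4.86 UMIs in AML and 3.1, 4.04 and 3.35 UMIs in Control. Lyve1, the hyaluronan receptor, was highest in AML 2 and its ratio ran from 3.33 to 5.68.

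The AML libraries did not move as a block. At 2000 UMIs a Spry4 UMI occurred in 13.1%, 57.2% and 43.1% of members in AML and in 8.2%, 8.2% and 6.9% in Control, so that AML 1 lay near the Control libraries. For the Notch target Hey1 the shares were 23%, 4.6% and 11.4% in AML and 34.5%, 32.5% and 30.8% in Control. The chemokine Cxcl12 had 54.7%, 13.3% and 34% in AML and 42.2%, 43.5% and 50.2% in Control, and AML 1 was the highest of all. Kit had 56.9%, 36.3% and 37.9% in AML and 67.8%, 66.0% and 68.2% in Control. Alveolar type 2 cells had a Spry4, Hey1, Cxcl12 or Kit UMI in at most 1.5% of cells in any library. For these 4 genes the group difference did not pass in members (edgeR adjusted p = 0.0731, 0.16, 0.628 and 0.0798 for Spry4, Hey1, Cxcl12 and Kit).

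**Figure D5:**
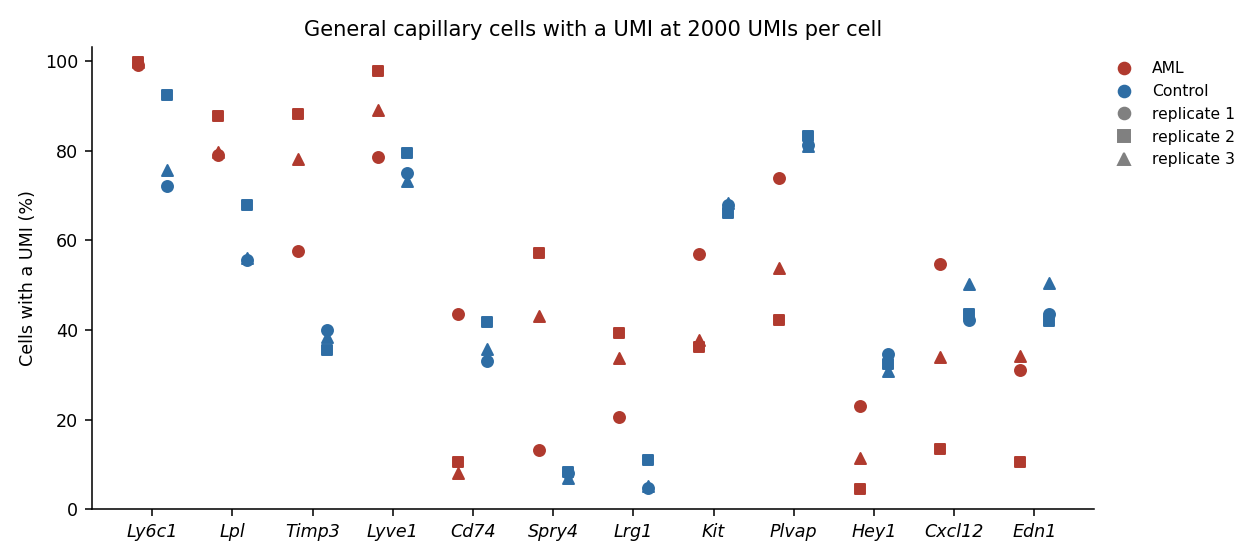
Percent of general capillary cells with at least 1 UMI of each gene (y axis) after thinning each cell to 2000 UMIs, with AML libraries (red) left of Control libraries (blue) and a symbol shape per replicate. The Control libraries lie close together for Timp3, Kit, Plvap and Hey1, while AML 1 lies apart from AML 2 and AML 3 for Cd74, Spry4 and Hey1.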

How the data were processed

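The authors deposited raw counts of UMIs for 32285 features in every barcode of each of the 6 libraries. Cell Ranger made them against mm10, as version 6.0.1 per the file headers and version 7.0.0 per the submitters' processing notes; strand handling was not given in the sources used here. The members, the gene lists (37) and the tests were chosen with earlier results of these data known. Barcodes were gated on raw counts; doublets were not called beyond the rule. Counts of members were summed per library and tested with edgeR 4.0.16 (glmQLFit, robust; TMM; filterByExpr; R 4.3.3), AML minus Control, adjusted by Benjamini-Hochberg at 0.05; rule genes stayed in the fits and adjustment but are described without a test. Interaction fits held the library as a factor and the class. The scripts' fits were also run on simulated counts with a common dispersion for all genes. That run does not bear on how far the calls rest on single libraries. Thinning drew each cell to 2000 UMIs (seed 7), leaving out 1430 AML and 467 Control members below that. Named genes were the 12 largest rises and falls among called genes that lay apart between groups, averaged at least 20 CPM in the higher group and, if risen, were not higher in haematopoietic barcodes of AML libraries. Up to 3 members per list by p, without those conditions, 6 called genes per interaction with at least 20 CPM in a class, and the 10 most variable genes were added. Coordinates are from GENCODE M21 (mm10), and promoters from RefSeq (GRCm38.p6). Mx1 and Mx2, and Ccl21a, Aldoa and Ddit3, whose symbols were not unique, were not analysed here. Alternatives covered scaling, filters, DESeq2 1.42.0, the replicate block, cell numbers, thinning, Esm1, Scrublet (scanpy 1.11.5, Python 3.11.15), mitochondrial share, cells with at least 2000 UMIs (chosen after seeing the data) and each library left out.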

Additional observations from a re-analysis of the deposited data

Results flagged for a closer look

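The AML effect was compared between general capillary cells and another capillary class of the same libraries by a test of the difference itself (edgeR interaction). It differed in 142 genes against aerocytes and 36 against Esm1-positive cells, and the 12 given here are those picked by the naming rule. Pdgfb, Ybx1 and Ctnnb1 each lost the call in at least 1 fit that left out a library. Against aerocytes the differences of log2 effects were 2.03 for Spry4, -2.04 for Fam107a, 1.16 for Ptp4a3, -1.66 for Limch1, 2.31 for Tbxa2r and 1.06 for Rgl1. Against Esm1-positive capillary cells they were 0.96 for Timp3, -1.70 for Ccn2, 0.86 for Sparcl1, -1.30 for Pdgfb, 0.55 for Ybx1 and 0.85 for Ctnnb1. For Fam107a, Tbxa2r and Rgl1 the change in general capillary cells was the smaller one (log2 0.27, -0.49 and -0.21, against 2.31, -2.77 and -1.30 in aerocytes). The change was also smaller in general capillary cells for Ccn2 and Ctnnb1 (log2 -0.71 and 0.11, against 1.06 and -0.70 in Esm1-positive cells). For Spry4, Ptp4a3, Limch1, Ccn2, Sparcl1, Ybx1 and Ctnnb1 the AML change by itself passed in neither of the compared classes (edgeR). No group had more than 3 libraries, so no library was tested as an outlier of its group.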

How the results depend on the processing

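The number of genes called in general capillary cells was 208. It was 659 (306 higher, 353 lower) without the low-count filter, 803 (352 higher, 451 lower) with the DESeq2 test and 348 with the replicate block. It ran from 0 to 965 when 1 replicate was left out. It stayed within 1.5 times with DESeq2 size factors (203), equal cells per library (258), the rule at 2000 UMIs (288), no condition on Esm1 (236), Scrublet doublets removed (209), at most 10% mitochondrial UMIs (201) and cells with at least 2000 UMIs only (192); 157 to 205 of the 208 genes were still called in these 7. The aerocyte interaction gave 142 genes, 335 without the low-count filter and 54 to 250 with a replicate left out. The Esm1-positive interaction gave 36 genes and 14 to 37 with a replicate left out. The labels give both groups the numbers 1 to 3, but same-numbered libraries did not deviate together (r = -0.0208, -0.0193 and 0.0148 over 8135 genes), and no AML library correlated best with its own number, so the numbers were not taken as pairs. The share difference of 16.3 points was 9.72 when thinned, 13.5 without the Esm1 condition, 17.4 with Scrublet and 13.7 at 10% mitochondrial UMIs. Where a gene lost its call the cause was not tested. Of the called named genes, Cyp1a1 lost its call without the low-count filter (adjusted p = 0.118), with the replicate block (0.0545), with the rule at 2000 UMIs (0.0821) and without the Esm1 condition (0.0502); Isg15, Emp2, Tcf23, Errfi1 and Jam2 were lost in 11, 10, 8, 8 and 7 of 16 alternatives. Counts of few cells in Control 1 limit what can be seen in genes of low level.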

Other observations

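Several called genes of general capillary cells that belong to no list were named after their values were seen. Among interferon-inducible genes outside the list, Ifi213 had 20.2, 9.94 and 11.5 CPM in AML and 46.5, 46.3 and 41.9 CPM in Control, Herc6 31.4, 22.2 and 20.8 CPM in AML and 79.2, 49.3 and 49.7 CPM in Control, and Sp100 81.1, 51.0 and 52.0 CPM in AML and 129, 118 and 122 CPM in Control. The matrix gene Abi3bp averaged 122 ± 12.2 CPM in AML and 222 ± 10.4 CPM in Control, and the receptor phosphatase Ptprm, a cell-cell adhesion gene, averaged 90.9 ± 20.4 CPM in AML and 224 ± 52.3 CPM in Control. The Yap-pathway adaptor gene Amotl2 had 72.8, 48.6 and 78.7 CPM in AML and 171, 161 and 156 CPM in Control.

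Among called rises, the mitochondrial carrier gene Ucp2 had 1560, 2684 and 2624 CPM in AML and 776, 1084 and 651 CPM in Control. Marcks, an actin-linked protein kinase C substrate, had 1366, 2795 and 3038 CPM in AML and 814, 956 and 784 CPM in Control. Qsox1, a secreted thiol oxidase, and Hs3st1, a heparan sulfate sulfotransferase, averaged 572 and 191 CPM in AML and 235 and 90.3 CPM in Control. Tiparp, a poly-ADP-ribosyltransferase that is a target of the aryl hydrocarbon receptor, had 77.9, 173 and 187 CPM in AML and 42.0, 57.5 and 48.8 CPM in Control.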
